A study of Mus musculus with 2 samples.

Results

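Interstitial cells of the mouse mitral valve that carried at least 8 unique molecular identifiers (UMIs, each marking 1 captured transcript) of Chad, Cilp2 and Thbs4 together are described here and are called high cells. A cell counted as interstitial when Dcn, Col1a1, Col1a2 and Col3a1 together made up at least 1% of its UMIs. High cells numbered 2135 of 15324 interstitial cells and of 18630 cells in all, with 1015 of 7768 interstitial cells in the Fbn1 C1039G/+ library and 1120 of 7556 in the wild type library. The cells were chosen by the measured UMIs of these genes, so the levels of Chad, Cilp2 and Thbs4 describe the choice and support nothing further.

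The study set mitral valves of Fbn1 C1039G/+ mice beside those of wild type mice (Fbn1 +/+), all C57BL/6J and 1 month old. Valves of 3 Fbn1 C1039G/+ mice were pooled into 1 library and those of 5 wild type mice into another, made with the droplet-based 10x Genomics 3′ chemistry after enzyme digestion of both leaflets. Fbn1 codes for fibrillin-1, from which microfibrils are built, and the C1039G change of a cysteine to glycine is used in mice to model Marfan syndrome. The allele is present in every cell of a mouse. With 1 library per genotype no difference could be set against the spread between mice, so every value is given for both libraries, intervals are 95% and cover counting error only, and no p-value was computed. Both pools held cells with female and cells with male transcripts, and in the pool of 3 mice 1 sex therefore came from a single mouse.

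Valve interstitial cells are fibroblast-like cells that make and maintain the leaflet matrix, a layered tissue of collagen, proteoglycan and elastic fibres. Leaflets share part of their matrix genes with cartilage and tendon, which also bear load. Chad encodes chondroadherin, a leucine-rich repeat protein of cartilage that binds collagen and integrins. Cilp2 encodes a secreted relative of cartilage intermediate layer protein, and Thbs4 encodes thrombospondin-4, a pentameric matrix protein of tendon and muscle.

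The promoters of the 3 genes that define the high cells are shown because their summed UMIs chose the cells, in which transcripts of the E-box-binding tendon factor Scx were also at a higher level. Each runs from 250 bases before to 50 bases after the annotated start, from RefSeq on GRCm38.p6 (mm10), written on the gene's own strand with the E-box motif CANNTG in capitals. The motif reads the same on both strands.
Chad, chr11:94564797-94565096, plus strand: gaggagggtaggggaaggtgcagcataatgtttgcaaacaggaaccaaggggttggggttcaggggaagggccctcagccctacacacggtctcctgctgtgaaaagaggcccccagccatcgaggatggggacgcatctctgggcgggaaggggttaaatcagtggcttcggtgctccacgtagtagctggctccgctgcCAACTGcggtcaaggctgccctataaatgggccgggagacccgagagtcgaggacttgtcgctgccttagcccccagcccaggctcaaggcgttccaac
Cilp2, chr8:69887343-69887642, minus strand: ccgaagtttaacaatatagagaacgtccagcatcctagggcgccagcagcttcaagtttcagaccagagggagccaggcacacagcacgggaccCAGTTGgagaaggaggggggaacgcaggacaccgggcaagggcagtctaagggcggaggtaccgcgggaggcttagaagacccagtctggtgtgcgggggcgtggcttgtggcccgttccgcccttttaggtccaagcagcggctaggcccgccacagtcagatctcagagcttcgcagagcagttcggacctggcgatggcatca
Thbs4, chr13:92794769-92795068, minus strand: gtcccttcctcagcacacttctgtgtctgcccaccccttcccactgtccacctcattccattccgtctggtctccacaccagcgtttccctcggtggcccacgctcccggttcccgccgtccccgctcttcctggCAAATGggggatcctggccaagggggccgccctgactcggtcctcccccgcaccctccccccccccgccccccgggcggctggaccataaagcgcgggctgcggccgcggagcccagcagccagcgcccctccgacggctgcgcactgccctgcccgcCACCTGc
The Chad promoter held 1 CANNTG, that of Cilp2 held 1 and that of Thbs4 held 2. Of all 32851 promoters in the table, 72.3% held at least 1, and 39.6% held at least 2. The promoters of Fmod and Angptl7, further markers of the high cells, held 1 and 3, and 17.6% of all promoters held at least 3. The form CAGATG, read on either strand, was absent from the promoters of Chad, Cilp2 and Thbs4. It was present in those of Fmod and Angptl7 and in 17.2% of all promoters. These are matches of letters and not measured binding sites. Chad lies on chromosome 11 from 94565047 to 94569127 (plus strand), Cilp2 on chromosome 8 from 69880369 to 69887687 (minus strand) and Thbs4 on chromosome 13 from 92751590 to 92794818 (minus strand) of mm10 in GENCODE M21, where the start of Cilp2 lies upstream of the RefSeq start used for its promoter.

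The Fbn1 C1039G/+ library held 103663375 UMIs in 9744 barcodes and the wild type library held 100969482 in 9509. The libraries shared 17 barcode sequences, of which 0 belonged to high cells in both. High cells were deeper than the rest, with a median of 11223 UMIs against 9860 in other interstitial cells of the Fbn1 C1039G/+ library and 11580 against 9817 in the wild type library. Predicted doublets made up 8.08% of high cells and 9.14% of other interstitial cells in the Fbn1 C1039G/+ library, and 7.23% and 8.31% in the wild type library. Outside the interstitial cells the threshold of 8 UMIs was met by 1 of 1672 cells in the Fbn1 C1039G/+ library and by 6 of 1634 in the wild type library.

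The UMIs of the 3 genes describe how the rule divided the cells. The high cells held 94.1% of the Chad UMIs of interstitial cells in both libraries, 76.9% and 79.4% of the Cilp2 UMIs and 83.6% and 87.3% of the Thbs4 UMIs in the Fbn1 C1039G/+ and the wild type library. A Chad UMI was found in 49.0% of high cells (45.8 to 52.1) in the Fbn1 C1039G/+ library and in 65.1% (62.2 to 67.9) in the wild type library. A Cilp2 UMI was found in 95.3% and 92.3%, and a Thbs4 UMI in 65.6% and 60.1%. In other interstitial cells the shares were 3.49% and 5.50% for Chad, 20.98% and 18.2% for Cilp2, and 8.66% and 7.35% for Thbs4. Macrophages (cells outside the interstitial class with at least 10 UMIs of C1qa, C1qb and C1qc), which should lack the 3 genes, carried a UMI of Chad in 1.13% and 2.21% of cells, of Cilp2 in 1.80% and 2.95% and of Thbs4 in 1.35% and 1.60%, at medians of 7444 and 8328 UMIs per cell. After thinning every cell to 5000 UMIs, which left out 13 and 7 high cells, 608 and 167 other interstitial cells and 193 and 82 macrophages, Chad was found in 43.2% and 58.6% of high cells, in 1.89% and 3.53% of other interstitial cells and in 0.719% and 1.09% of macrophages. Few high cells lacked both Cilp2 and Thbs4, since Chad alone was found in 0.985% and 2.77% of them, whereas all 3 genes were found in 27.2% and 32.9%.

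There was no gap in the data at the threshold. Just outside it, the 206 cells of the Fbn1 C1039G/+ library with 6 or 7 UMIs of the 3 genes held 2642 CPM (counts per 1000000 UMIs of the cells summed) of Comp, and the 231 such cells of the wild type library held 2249 CPM. Just inside, the 163 and 161 cells with 8 or 9 UMIs held 2838 CPM and 2485 CPM. The values on both sides of the line were close to each other and far above the level of 651 and 582 CPM in all other interstitial cells of the Fbn1 C1039G/+ and the wild type library.

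**Figure D1:**
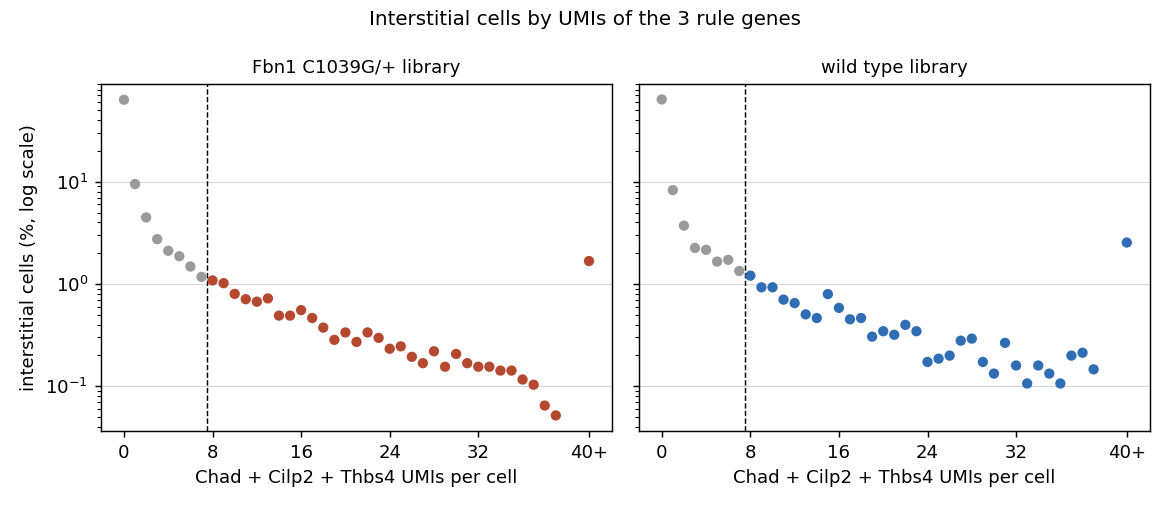
Share of interstitial cells (vertical axis, percent on a log scale) by the summed UMIs of Chad, Cilp2 and Thbs4 per cell (horizontal axis, with 40 and more in the last point) in the Fbn1 C1039G/+ library (left) and the wild type library (right); the dashed line is the threshold of 8 UMIs and coloured points are high cells. The points run on through the threshold without a break in both libraries, and 63.6% of Fbn1 C1039G/+ interstitial cells and 64.1% of wild type interstitial cells had no UMI of the 3 genes.

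The name cartilage-like was checked against markers of cartilage. The markers gave a mixed picture. Acan, Col9a1, Hapln1 and Ucma were present, as described with the cartilage matrix genes, Sox9 was present in both classes, and Col2a1 and Matn1 were close to 0. Col2a1, the main collagen of hyaline cartilage, had 1.77 CPM in high cells and 0.384 CPM in other cells of the Fbn1 C1039G/+ library, and 1.93 and 0.264 CPM in the wild type library. Matn1, a matrilin of cartilage, was at 0 UMIs in the Fbn1 C1039G/+ high cells, with an interval up to 0.272 CPM, and at 2 UMIs in the wild type high cells. Col9a3, another collagen IX chain, was not higher, at 16.4 CPM in high against 17.2 CPM in other Fbn1 C1039G/+ cells. In wild type cells it had 8.35 against 9.89 CPM. High cells of the Fbn1 C1039G/+ and the wild type library had 2.95 and 1.93 CPM of Col9a2, 0.221 and 0.621 CPM of Matn3 and 0.295 and 0.414 CPM of Snorc. Cnmd had 5.52 and 5.18 CPM in high cells against 0.810 and 0.747 CPM in other cells. Sox9, the regulator of chondrocyte identity, had 298 CPM in high against 387 CPM in other Fbn1 C1039G/+ cells, and 260.4 CPM in high against 332 CPM in other wild type cells, so it was at a lower level in high cells than in the others, within 2-fold. Tnmd, a marker of mature tendon cells, had 0.221 CPM in the Fbn1 C1039G/+ high cells and 1.73 CPM in the wild type high cells. Because of this mix the cells are named by their 3 genes and not as chondrocytes or tendon cells.

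High cells were first set beside the other interstitial cells of the same library. Of 6434 genes measured in both libraries (at least 20 CPM in either class and at least 50 UMIs over both), 93 (1.45%) were at least 2-fold higher in high cells in both libraries with counting intervals above 1, and 108 (1.68%) were at least 2-fold lower. The 93 include the 3 genes of the rule and Col1a1 and Col1a2, which were used to define interstitial cells. The median log2 ratio of high over other cells across the measured genes was -0.10 in the Fbn1 C1039G/+ library and -0.08 in the wild type library. All log2 ratios use a pseudocount of 1 CPM, which understates the ratio of genes at a low level. A gene that was measured only through the class in which it is high had to differ, so counts within a gene list describe that list and are no further support.

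**Figure D2:**
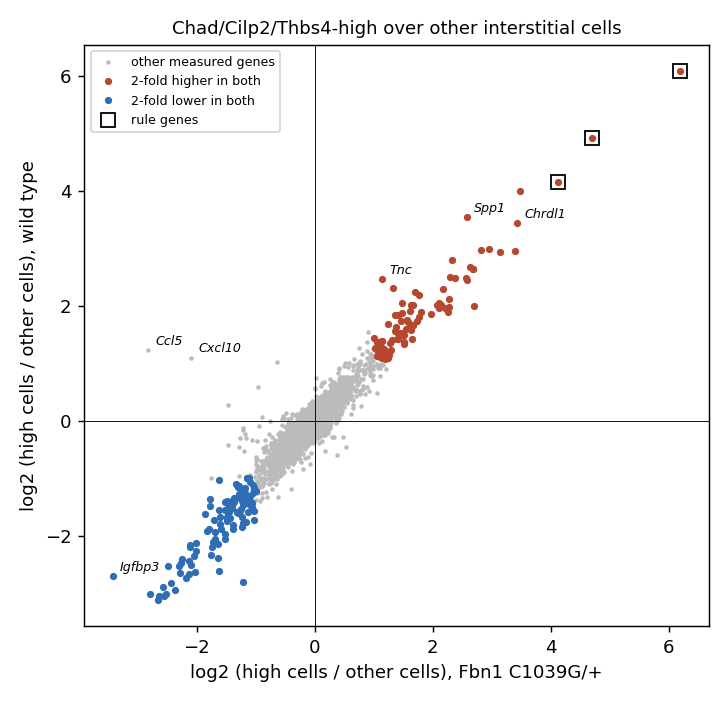
Log2 ratio of high cells over other interstitial cells for each measured gene, in the Fbn1 C1039G/+ library (horizontal axis) and the wild type library (vertical axis); red and blue points are the 93 genes higher and the 108 genes lower by at least 2-fold in both, squares the 3 rule genes. Most points lie along the diagonal, and Ccl5 and Cxcl10 lie far from it at the upper left.

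Cartilage matrix genes were the clearest group. Of 23 genes listed, 12 were measured, 10 were higher in high cells and 1 was lower, and the list's median log2 ratio was 1.44 in the Fbn1 C1039G/+ library and 1.46 in the wild type library. Acan, which encodes aggrecan, the large chondroitin sulfate proteoglycan that holds water in cartilage, had 50.1 CPM in high cells and 3.87 CPM in other cells of the Fbn1 C1039G/+ library, and 46.8 CPM in high cells and 5.19 CPM in other cells of the wild type library. That is a log2 ratio of 3.39 and 2.95. Comp, cartilage oligomeric matrix protein, a thrombospondin that binds collagen fibrils, had 4184 CPM in high cells and 651 CPM in other cells of the Fbn1 C1039G/+ library, and 3652 CPM in high cells and 582 CPM in other cells of the wild type library. Cilp, the relative of Cilp2 that was not part of the rule, had 805 CPM in Fbn1 C1039G/+ high cells (90.0 CPM in the other cells) and 975 CPM in wild type high cells (126 CPM in the other cells). The levels of both genes in high cells were at least 6-fold those in other cells in each library.

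The collagens of this list belong to the fibrils of cartilage. Col11a1 and Col11a2 encode chains of collagen XI, which nucleates thin fibrils. Col11a1 had 242 CPM in high cells and 30.5 CPM in other cells of the Fbn1 C1039G/+ library, and 221 CPM in high cells and 26.9 CPM in other cells of the wild type library. Col11a2 had 249.9 CPM in high against 50.6 CPM in other Fbn1 C1039G/+ cells, and 235 CPM in high against 52.9 CPM in other wild type cells. Col9a1, a chain of collagen IX on the fibril surface, had log2 ratios of 1.17 in the Fbn1 C1039G/+ and 1.24 in the wild type library. Hapln1, the link protein that ties aggrecan to hyaluronan, missed the 2-fold limit in the Fbn1 C1039G/+ library, with log2 ratios of 0.98 in the Fbn1 C1039G/+ and 1.04 in the wild type library. Matn2, a matrilin found in many tissues, was the member that was lower, at 36.8 CPM in Fbn1 C1039G/+ high cells (179 CPM in the other cells) and 31.6 CPM in wild type high cells (173 CPM in the other cells). Other members above 2-fold in both libraries were Prelp, Prg4 (lubricin), Ucma and Matn4. Clec3a, a C-type lectin of cartilage on chromosome 8 from 114418086 to 114425846 (plus strand), led the named genes, with 21.1 CPM in high cells and 0.974 CPM in other cells of the Fbn1 C1039G/+ library, and 26.2 CPM in high cells and 0.703 CPM in other cells of the wild type library. A Clec3a UMI was found in only 14.2% of Fbn1 C1039G/+ and 15.8% of wild type high cells.

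Genes of tendon and of the small leucine-rich proteoglycans, which coat collagen fibrils and set their width, were higher as well. In the tendon and ligament list 8 of 13 measured genes were higher and 1, Col14a1, was lower. Among the small leucine-rich proteoglycans 6 of 9 measured genes were higher and 0 lower. Fmod, fibromodulin, had 2734 CPM in high cells and 557 CPM in other cells of the Fbn1 C1039G/+ library, and 2563 CPM in high cells and 452 CPM in other cells of the wild type library. Kera, keratocan, known from the cornea, had 55.2 CPM in high against 7.01 CPM in other Fbn1 C1039G/+ cells, and 51.4 CPM in high against 5.67 CPM in other wild type cells. A Kera UMI was found in only 12.4% of Fbn1 C1039G/+ and 9.91% of wild type high cells, and 5 cells held 28.0% and 24.4% of its UMIs. Prelp, Aspn, Omd and Ogn were the other proteoglycans above 2-fold in both libraries, with log2 ratios between 1.37 and 1.62. Lum, Bgn and Ecm2 did not pass the 2-fold limit in both, and Lum had negative log2 ratios, -0.56 and -0.67. The proteoglycans that passed are those of tendon, cornea and bone, whereas Vcan, the versican of loose valve matrix, was lower, at 392 CPM in Fbn1 C1039G/+ high cells (1131 CPM in the other cells) and 326 CPM in wild type high cells (867 CPM in the other cells).

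Angptl7, a secreted angiopoietin-like protein on chromosome 4 from 148495183 to 148500460 (minus strand), had 495 CPM in high cells and 79.0 CPM in other cells of the Fbn1 C1039G/+ library, and 473 CPM in high cells and 73.4 CPM in other cells of the wild type library. Scx, scleraxis, the basic helix-loop-helix factor of tendon progenitors, had 596 CPM in high against 224 CPM in other Fbn1 C1039G/+ cells, and 501 CPM in high against 139 CPM in other wild type cells. Scx was thus above 2-fold in both libraries. None of 10 measured members of a list of chondrogenic and tendon regulators, which holds Sox5, Sox6, Sox9, Runx1 and Trps1 but not Scx, passed the limit in either direction, and its median log2 ratios were 0.03 and 0.02. Among 17 measured valve transcription factors, Prrx2 was higher and Twist2 and Tcf21 were lower, and Tbx20 stood at 926 CPM in Fbn1 C1039G/+ high cells (1025 CPM in the other cells) and 809.8 CPM in wild type high cells (859 CPM in the other cells).

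Of 22 measured genes for collagen processing and crosslinking, 5 were higher and 0 lower. The 5 were the lysyl oxidases Lox, Loxl2 and Loxl3, the lysyl hydroxylase Plod2 and the prolyl hydroxylase P3h2. Loxl2, which crosslinks collagen, had 721 CPM in high cells and 340.2 CPM in other cells of the Fbn1 C1039G/+ library, and 637 CPM in high cells and 246 CPM in other cells of the wild type library. Plod2, which hydroxylates the collagen lysines used for crosslinks, had 259 CPM in high against 127 CPM in other Fbn1 C1039G/+ cells, and 253 CPM in high against 105 CPM in other wild type cells. In both libraries these enzyme genes stood a little above the 2-fold limit. Of 20 measured genes of fibrillin microfibrils and elastic fibres, Ltbp2 and Lox were higher and 2 were lower. Ltbp2, a microfibril-binding member of the latent TGF-beta binding proteins, had 405 CPM in Fbn1 C1039G/+ high cells (134 CPM in the other cells) and 443 CPM in wild type high cells (134 CPM in the other cells). Fbn1 itself had 481 CPM in high against 441 CPM in other Fbn1 C1039G/+ cells, and 501 CPM in high against 395 CPM in other wild type cells, and counts of 3′ ends do not tell transcripts of the C1039G allele from those of the other allele. Eln, elastin, had 148 CPM in Fbn1 C1039G/+ high cells (288 CPM in the other cells) and 132 CPM in wild type high cells (262 CPM in the other cells), just within 2-fold.

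Some members of the lists of secreted signals and receptors were called. Over all 6434 measured genes 1.45% were higher and 1.68% lower. Of 13 measured genes of Wnt signalling 1 was higher and 1 lower, and of 10 measured genes of FGF, IGF and hedgehog signalling 1 was higher and 2 were lower. Chrdl1, a secreted inhibitor of bone morphogenetic proteins on chromosome X from 143285674 to 143394262 (minus strand), had 384 CPM in high cells and 34.7 CPM in other cells of the Fbn1 C1039G/+ library, and 374 CPM in high cells and 33.6 CPM in other cells of the wild type library, a ratio of 11.1 (10.6 to 11.6) and 11.1 (10.6 to 11.7). It was the single member called among 11 measured genes of the bone morphogenetic protein list, of which Bmp4, Id1 and Id3 stayed within 2-fold. Cyp26a1, an enzyme that breaks down retinoic acid, had 292 CPM in high against 44.5 CPM in other Fbn1 C1039G/+ cells, and 260.2 CPM in high against 40.6 CPM in other wild type cells. The growth factor Fgf9 had 38.6 CPM in Fbn1 C1039G/+ high cells (6.86 CPM in the other cells) and 61.5 CPM in wild type high cells (7.93 CPM in the other cells). The related Fgf18, a growth factor of cartilage, had log2 ratios of 1.52 in the Fbn1 C1039G/+ and 1.33 in the wild type library. Sfrp2, a secreted Wnt modulator, had 1054 CPM in high against 332 CPM in other Fbn1 C1039G/+ cells, and 922 CPM in high against 228 CPM in other wild type cells, while Sfrp1 was lower, with log2 ratios of -1.07 in the Fbn1 C1039G/+ and -1.50 in the wild type library.

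Further genes of this group are receptors or peptides with known hormone roles. Glp1r, the receptor of the incretin GLP-1, had 31.9 CPM in high cells and 4.50 CPM in other cells of the Fbn1 C1039G/+ library, and 45.1 CPM in high cells and 7.44 CPM in other cells of the wild type library. Galr2, a receptor of the neuropeptide galanin, had 20.8 CPM in Fbn1 C1039G/+ high cells (3.20 CPM in the other cells) and 27.1 CPM in wild type high cells (4.01 CPM in the other cells). Npy, neuropeptide Y, had 394 CPM in high against 157 CPM in other Fbn1 C1039G/+ cells, and 474 CPM in high against 94.7 CPM in other wild type cells. All 3 were above 2-fold in both libraries, although Npy was also found in other cells. Ackr3, a scavenging receptor of the chemokine CXCL12, and Gja1, the gap junction protein connexin 43, were above the same limit, with log2 ratios of 1.21 in the Fbn1 C1039G/+ and 1.12 in the wild type library for Ackr3 and log2 ratios of 1.16 in the Fbn1 C1039G/+ and 1.18 in the wild type library for Gja1. Of 16 measured integrins and matrix receptors, Itga11, a collagen-binding integrin chain, was the single gene called, with log2 ratios of 1.14 in the Fbn1 C1039G/+ and 1.09 in the wild type library.

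Genes of mineralised tissue gave a mixed picture. Of 7 measured genes of hypertrophy and mineralisation, Spp1 and Enpp1 were higher and Vegfa was lower. Spp1, osteopontin, had 38.5 CPM in high cells and 5.61 CPM in other cells of the Fbn1 C1039G/+ library, and 87.4 CPM in high cells and 6.56 CPM in other cells of the wild type library. Enpp1, which makes pyrophosphate, an inhibitor of mineral growth, had log2 ratios of 1.10 in the Fbn1 C1039G/+ and 1.24 in the wild type library. Mgp, matrix Gla protein, which also inhibits mineral growth, stayed within 2-fold, at 18394 CPM in Fbn1 C1039G/+ high cells (11981 CPM in the other cells) and 17420.4 CPM in wild type high cells (12841 CPM in the other cells). Bglap2, one of several near-identical osteocalcin copies whose reads may be split in counting, had log2 ratios of 0.53 in the Fbn1 C1039G/+ and -0.45 in the wild type library, so its sign differed between the libraries. Vegfa, the vascular growth factor, had 9.21 CPM in high against 30.7 CPM in other Fbn1 C1039G/+ cells, and 12.97 CPM in high against 72.5 CPM in other wild type cells.

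Thbs1 and Tnc stood out among matricellular genes, where 4 of 17 measured genes were higher and 1, Tnxb, was lower. Thbs1, thrombospondin-1, which was not part of the rule, had 3819 CPM in high cells and 1496 CPM in other cells of the Fbn1 C1039G/+ library, and 2954 CPM in high cells and 1002 CPM in other cells of the wild type library. Tnc, tenascin-C, had 99.6 CPM in Fbn1 C1039G/+ high cells (44.6 CPM in the other cells) and 87.6 CPM in wild type high cells (15.0 CPM in the other cells), so the ratio was larger in the wild type library. Among the other collagens Col8a2, a short-chain collagen, had 151 CPM in high against 24.8 CPM in other Fbn1 C1039G/+ cells, and 164 CPM in high against 28.4 CPM in other wild type cells, whereas Col14a1 and Col18a1 were lower. Of 19 measured TGF-beta ligands, receptors and targets, Thbs1 was the single gene called, and Tgfb2 had 162 CPM in Fbn1 C1039G/+ high cells (121 CPM in the other cells) and 149.8 CPM in wild type high cells (108 CPM in the other cells). Contractile genes, interferon response genes, cell cycle genes and immediate early genes each had 0 members called in either direction, of 9, 11, 4 and 16 measured.

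**Figure D3:**
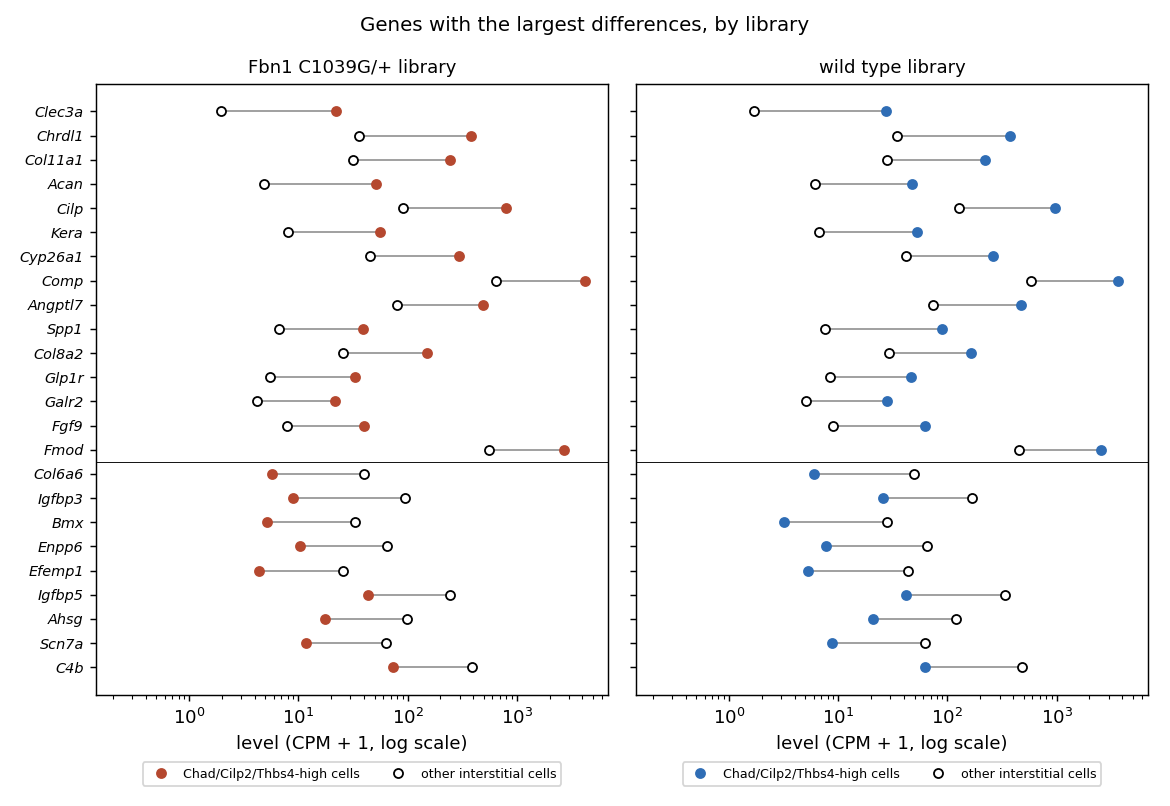
Level (horizontal axis, CPM + 1 on a log scale) of genes in the high cells (filled) and the other interstitial cells (open) of the Fbn1 C1039G/+ library (left) and the wild type library (right), for the 15 genes with the highest ratios and 9 of the 10 with the lowest. From Clec3a to Fmod every filled point lies right of its open point, and from Col6a6 to C4b every one lies left of it, in both libraries.

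The lowest genes in the high cells had varied roles. Igfbp5, which binds insulin-like growth factors, had 42.2 CPM in high cells and 246 CPM in other cells of the Fbn1 C1039G/+ library, and 40.3 CPM in high cells and 335 CPM in other cells of the wild type library. Igfbp3, a relative, had 7.88 CPM in high against 94.6 CPM in other Fbn1 C1039G/+ cells, and 24.4 CPM in high against 165 CPM in other wild type cells. Efemp1, fibulin-3, had 3.39 CPM in Fbn1 C1039G/+ high cells (24.8 CPM in the other cells) and 4.28 CPM in wild type high cells (42.9 CPM in the other cells), and Col6a6, a chain of collagen VI, had 4.71 CPM in high against 38.6 CPM in other Fbn1 C1039G/+ cells, and 5.04 CPM in high against 48.0 CPM in other wild type cells. Each was at least 4-fold lower in both libraries. C4b, a complement component, had 73.3 CPM in high cells and 385 CPM in other cells of the Fbn1 C1039G/+ library, and 61.8 CPM in high cells and 483 CPM in other cells of the wild type library, and it was 1 of 3 complement genes lower among 7 measured, with C3 and Serping1. Mmp3, a matrix-degrading protease, had 71.3 CPM in Fbn1 C1039G/+ high cells (291 CPM in the other cells) and 56.8 CPM in wild type high cells (277 CPM in the other cells), and 0 of 13 measured proteases and inhibitors were higher. Scn7a, a sodium channel, Enpp6, a choline-releasing phosphodiesterase, Ahsg, fetuin-A, and Bmx, a tyrosine kinase, were also among the 10 lowest, with log2 ratios between -3.12 and -2.44. Of the 57 Bmx UMIs in the Fbn1 C1039G/+ high cells, 78.9% came from 5 cells.

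Markers of other cell types were at lower summed levels in high cells than in other interstitial cells. All 3 measured mural markers, Rgs5, Kcnj8 and Abcc9, were lower, and the 8 listed mural markers summed to 65.6 CPM in high and 278 CPM in other cells of the Fbn1 C1039G/+ library and to 60.7 and 286 CPM in those of the wild type library. The 8 endothelial markers summed to 73.9 CPM in high and 97.5 CPM in other cells of the Fbn1 C1039G/+ library, and to 21.8 and 53.4 CPM in those of the wild type library. The 9 macrophage and leukocyte markers summed to 380.5 CPM in high and 564 CPM in other cells of the Fbn1 C1039G/+ library, and to 569 and 680 CPM in those of the wild type library. Of 8 cardiomyocyte and red cell markers, which summed to 270.4 and 647 CPM in high cells of the Fbn1 C1039G/+ and the wild type library, 4 and 3 were at 0, Myh6, Actc1 and Myl7 among them in both. Of 6 epicardial markers, 4 and 5 were at 0 in those high cells. The 8 melanocyte and glial markers summed to 108 and 119 CPM in them.

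The high cells also lay together when the genes that chose them were set aside. In an embedding of each library's interstitial cells computed without the 3 rule genes and the 4 interstitial genes, an average of 59.5% of the 15 nearest neighbours of a high cell in the Fbn1 C1039G/+ library were high cells, against 6.14% for other interstitial cells. In the wild type library the averages were 58.4% and 6.88%. Interstitial cells with 4 to 7 UMIs of the 3 genes, short of the threshold, stood between these values, at 30.4% in the Fbn1 C1039G/+ library and 32.2% in the wild type library. Those with no UMI of the 3 genes had 1.98% and 2.28%. Of 16 clusters of the interstitial cells of both libraries, made without the same 7 genes and without a correction for library, cluster 1 held 44.4% of Fbn1 C1039G/+ and 49.2% of wild type high cells, and cluster 2 held 34.9% and 31.6%. Kera, Chrdl1, Angptl7 and Pappa2 led cluster 1, and Clec3a, Cyp26b1 and Cspg4 were among the leading genes of cluster 2. The clusters were given no cell type names. Part of cluster 1 met the rule, at 48.8% of its Fbn1 C1039G/+ cells and 51.8% of its wild type cells, and the rest of its cells did not.

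The high cells differed in which of the 3 genes they held most of. Each cell was sorted by which of the 3 had the most UMIs. Cilp2 led, with ties set apart, in 50.4% of Fbn1 C1039G/+ and 39.1% of wild type high cells, Chad in 20.3% (17.9 to 22.9) and 36.0% (33.2 to 38.9), and Thbs4 in 24.5% and 22.1%, with ties in 4.73% and 2.77%. Across high cells thinned to 5000 UMIs (1002 and 1113 cells), Pearson's r between Chad and Thbs4 was -0.24 in the Fbn1 C1039G/+ and -0.28 in the wild type library, and between Chad and Cilp2 it was 0.27 and 0.12. The rule on the sum favours negative values among the 3 genes, and the cells of a library share its preparation, so these are descriptions. Between Cilp2 and Fmod, a gene outside the rule, r was 0.44 and 0.52, and between Cilp2 and Comp it was 0.35 and 0.40.

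Cells led by Chad were set beside cells led by Thbs4. Of 6249 measured genes, 27 (0.432%) were at least 2-fold higher in Chad-led than in Thbs4-led cells in both libraries and 30 (0.48%) were lower. These counts include Chad among the higher and Thbs4 among the lower genes, which the sorting fixed, and the other genes named below were not used to sort the cells. Cytl1, a secreted protein first described in cartilage precursors, had 1564 CPM in Chad-led, 489 CPM in Cilp2-led and 306 CPM in Thbs4-led Fbn1 C1039G/+ cells, and 1132, 378 and 198 CPM in the same sets of wild type cells. Wif1, a secreted Wnt inhibitor, had 1438 CPM in Chad-led, 1109.8 CPM in Cilp2-led and 423 CPM in Thbs4-led Fbn1 C1039G/+ cells, and 1615, 1559 and 478 CPM in the same sets of wild type cells. Pappa2, a protease that cleaves insulin-like growth factor binding proteins, had 90.2 CPM in Chad-led, 72.9 CPM in Cilp2-led and 24.6 CPM in Thbs4-led Fbn1 C1039G/+ cells, and 111, 91.3 and 19.1 CPM in the same sets of wild type cells. Thbs4-led cells thus held the lowest levels of these genes in both libraries. Bglap2, whose reads may be split with those of near-identical copies, had 299 CPM in Chad-led, 62.8 CPM in Cilp2-led and 4.34 CPM in Thbs4-led Fbn1 C1039G/+ cells. In the same sets of wild type cells it had 268, 45.8 and 12.3 CPM. A Bglap2 UMI was found in only 7.59% of Fbn1 C1039G/+ and 11.6% of wild type high cells. Of its UMIs in high cells, 5 cells held 46.6% in the Fbn1 C1039G/+ and 32.03% in the wild type library. How far its levels in the sets rest on these cells was not tested.

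The genes higher in Thbs4-led cells included Cilp, which had 575 CPM in Chad-led, 713 CPM in Cilp2-led and 1155 CPM in Thbs4-led Fbn1 C1039G/+ cells, and 589, 895 and 1661 CPM in the same sets of wild type cells. S100a4, a calcium-binding protein of motile fibroblasts, had 482 CPM in Chad-led, 527 CPM in Cilp2-led and 1125 CPM in Thbs4-led Fbn1 C1039G/+ cells, and 549, 497 and 1275 CPM in the same sets of wild type cells. Serpine2, a protease inhibitor, had 75.6 CPM in Chad-led, 62.6 CPM in Cilp2-led and 189 CPM in Thbs4-led Fbn1 C1039G/+ cells, and 40.8, 35.9 and 119.6 CPM in the same sets of wild type cells. Top2a, a topoisomerase of dividing cells, had 11.1 CPM in Chad-led, 29.9 CPM in Cilp2-led and 64.2 CPM in Thbs4-led Fbn1 C1039G/+ cells, and 3.09, 34.7 and 66.3 CPM in the same sets of wild type cells, and Cdk1, Prc1, Cenpf and Ube2c, further genes of cell division, were lower in Chad-led cells as well. Cluster 12, with Prc1, Top2a, Ube2c and Cenpf among its leading genes, held only 12 high cells in each library. Of these, 1 and 0 were Chad-led, 5 and 6 Cilp2-led and 5 and 6 Thbs4-led in the Fbn1 C1039G/+ and the wild type library. How far the levels of these genes rest on so few cells was not tested. Scx stood close to the same level in all 3 sets, at 598 CPM in Chad-led, 567 CPM in Cilp2-led and 638 CPM in Thbs4-led Fbn1 C1039G/+ cells, and 443, 509 and 571 CPM in the same sets of wild type cells. Between Chad-led and Cilp2-led cells the differences were fewer, with 10 of 6105 genes (0.164%), Chad among them, higher and 1 (0.0164%), Top2a, lower. Between Cilp2-led and Thbs4-led cells 18 of 6212 genes (0.29%), Cilp2 among them, were higher and 14 (0.225%), Thbs4 among them, lower. Eln was among the higher ones, at 146 CPM in Chad-led, 198 CPM in Cilp2-led and 68.0 CPM in Thbs4-led Fbn1 C1039G/+ cells, and 108, 187 and 54.5 CPM in the same sets of wild type cells.

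**Figure D4:**
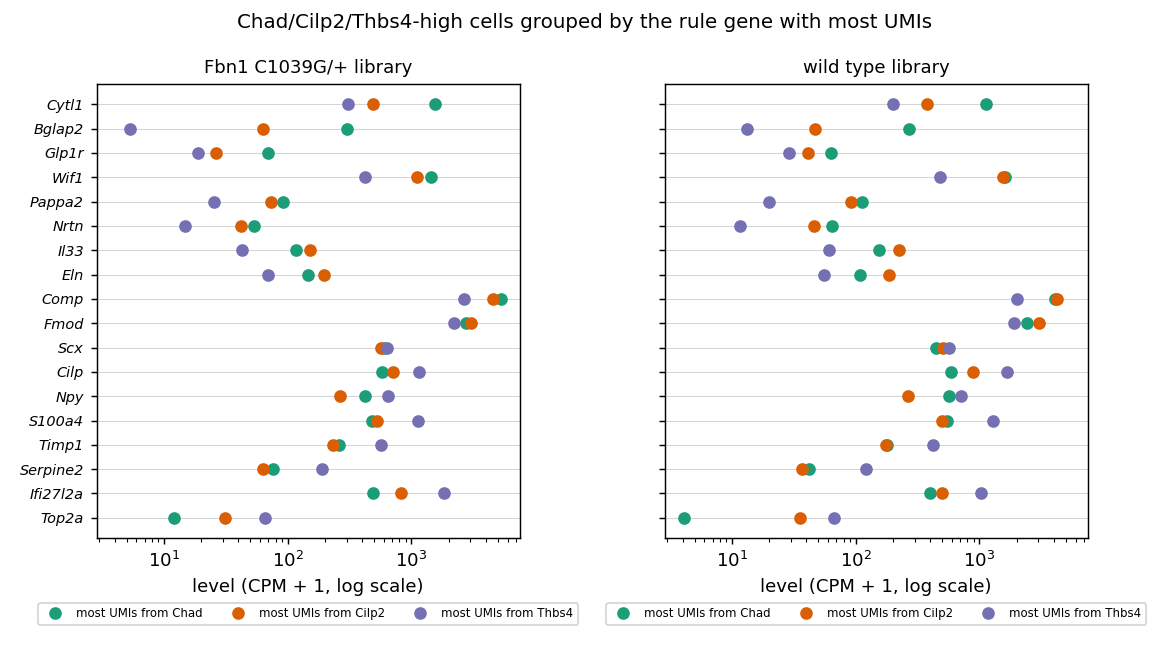
Level (horizontal axis, CPM + 1 on a log scale) of 18 genes in high cells sorted by which of Chad, Cilp2 and Thbs4 has the most UMIs, in the Fbn1 C1039G/+ library (left) and the wild type library (right). Cytl1, Wif1, Pappa2 and Bglap2 are lowest in Thbs4-led cells, and Cilp, S100a4, Serpine2 and Top2a are highest in them, in both libraries.

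The sets were spread unequally over the clusters. In cluster 1 Cilp2 led in 64.3% of the Fbn1 C1039G/+ high cells and 51.9% of the wild type high cells, and Thbs4 in 10.4% and 8.89%. In cluster 2 Thbs4 led in 37.0% and 39.0%. Cluster 6, led by Bglap2, held 3.94% of Fbn1 C1039G/+ and 7.23% of wild type high cells, and Chad led in 50.0% and 65.4% of those. The cluster held 488 of 7768 Fbn1 C1039G/+ and 855 of 7556 wild type interstitial cells, and 8.20% and 9.47% of these were high cells. Cluster 7, led by the interferon response genes Ifi44, Rsad2 and Isg15, held 6.502% and 3.48% of high cells. It also held more interstitial cells of the Fbn1 C1039G/+ library, 653 of 7768 against 230 of 7556. Within it the share of high cells went the other way, at 10.1% in the Fbn1 C1039G/+ and 17.0% in the wild type library.

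The 2 libraries were then compared. High cells made up 13.1% of interstitial cells (12.3 to 13.8) in the Fbn1 C1039G/+ library and 14.8% (14.0 to 15.6) in the wild type library, and 10.8% and 12.2% of all cells. Among cells with female transcripts the share was 11.1% (399 of 3598) in the Fbn1 C1039G/+ library and 12.9% (441 of 3418) in the wild type library. Among cells with male transcripts it was 16.8% (357 of 2129) and 17.6% (408 of 2315). The male intervals overlapped, at 15.2 to 18.4 in the Fbn1 C1039G/+ and 16.1 to 19.2 in the wild type library. The female intervals overlapped too, at 10.1 to 12.2 and 11.8 to 14.1. Among cells whose sex was not called the share was 12.7% (259 of 2041) and 14.9% (271 of 1823). Their intervals, 11.3 to 14.2 and 13.3 to 16.6, also overlapped. The share was thus lower in the Fbn1 C1039G/+ library in both sexes, and within each library it was higher in male than in female cells. Cells of the 2 sexes were not matched for depth. These differences between the libraries cannot be set against the spread between mice. The share was higher in deeper cells, and its order between the libraries was not the same at every depth. In the Fbn1 C1039G/+ library it was 2.09% of cells under 5000 UMIs, 10.5% (9.46 to 11.6) from 5000 to 10000, 15.2% from 10000 to 15000, 19.1% from 15000 to 20000 and 22.8% above. In the wild type library it was 4.02%, 8.52% (7.62 to 9.50), 19.6%, 22.9% and 29.6% in the same bins. Between 5000 and 10000 UMIs, the bin with the most cells, the share was thus higher in the Fbn1 C1039G/+ library, and in the other bins it was lower.

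Among the genes of the rule, Chad differed most between the libraries. Chad had 470.5 CPM in Fbn1 C1039G/+ and 759 CPM in wild type high cells, a log2 ratio of -0.69. Cilp2 had 791 CPM in Fbn1 C1039G/+ and 741 CPM in wild type high cells and Thbs4 had 436 CPM in Fbn1 C1039G/+ and 471 CPM in wild type high cells, so both stayed within 1.5-fold. In female cells the Chad log2 ratio was -0.88, and in male cells it was -0.41, within 1.5-fold. Chad chose the cells, so this is a description. Chad-led cells, fewer in the Fbn1 C1039G/+ library, had 1761 CPM of Chad in the Fbn1 C1039G/+ and 1836 CPM in the wild type library. Comp had 4184 CPM in Fbn1 C1039G/+ and 3652 CPM in wild type high cells, Fmod had 2734 CPM in Fbn1 C1039G/+ and 2563 CPM in wild type high cells and Angptl7 had 495 CPM in Fbn1 C1039G/+ and 473 CPM in wild type high cells, and each stayed within 1.5-fold. Fbn1 had 481 CPM in Fbn1 C1039G/+ and 501 CPM in wild type high cells, and no gene of 19 measured for microfibrils and elastic fibres passed 1.5-fold.

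Across all genes the libraries differed little in the high cells. Of 6323 measured genes, 35 (0.554%) were at least 1.5-fold higher in the Fbn1 C1039G/+ than in the wild type high cells with intervals above 1, and 72 (1.14%) were lower. In other interstitial cells of the same libraries 69 of 6618 (1.04%) were higher and 98 (1.48%) lower. The median log2 ratio was 0.02 in high cells and 0.04 in other cells. Of the 6167 genes measured in both classes, 65 were called in the same direction in both, 31 in high cells alone, and 0 in opposite directions. A gene called in high cells alone missed the limit in the other cells, and its 2 ratios can still be close. The classes also differed in summed UMIs, with 13575635 in high and 72883495 in other cells of the Fbn1 C1039G/+ library. Both comparisons rest on the same 2 libraries.

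**Figure D5:**
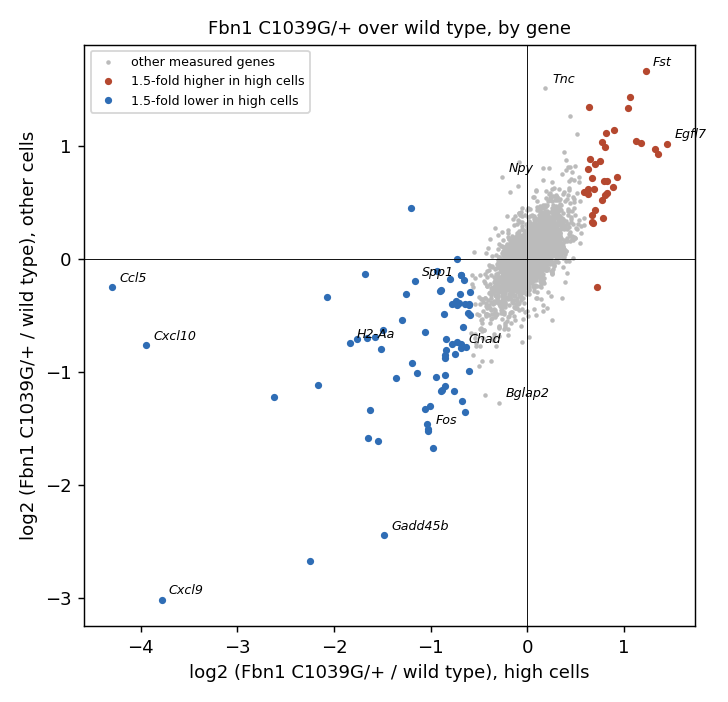
Log2 ratio of Fbn1 C1039G/+ over wild type for each gene measured in high cells, in high cells (horizontal axis) and in other interstitial cells (vertical axis). Red and blue points passed 1.5-fold in high cells. Ccl5 and Cxcl10 lie far left, at -4.30 and -3.95 in high cells, and Tnc lies near 0 in high cells at 1.51 in other cells.

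Counts for gene lists in high cells stand beside shares over all measured genes of 0.554% higher and 1.14% lower. Lists this short hold too few genes to be set against these shares. In the cartilage matrix list 1 of 13 measured genes, Epyc, was higher and 0 were lower, with a median log2 ratio of 0.10. Epyc, epiphycan, a small leucine-rich proteoglycan of growth plate cartilage, had 23.9 CPM in Fbn1 C1039G/+ and 14.1 CPM in wild type high cells, with log2 ratios of 1.23 in female and 0.91 in male cells. Collagen processing had 0 of 22 genes called. Of 16 measured matricellular genes 1, Fn1, was higher and 3, Spp1, Sparcl1 and Smoc2, were lower. Sparcl1, a relative of the collagen-binding protein SPARC, had 117 CPM in Fbn1 C1039G/+ and 198 CPM in wild type high cells, and Smoc2, another SPARC relative, had 20.2 CPM in Fbn1 C1039G/+ and 33.1 CPM in wild type high cells. Fn1, fibronectin, was higher, at 166 CPM in Fbn1 C1039G/+ and 80.0 CPM in wild type high cells, and so was Col8a1, at 98.8 CPM in Fbn1 C1039G/+ and 58.1 CPM in wild type high cells. In the Fbn1 C1039G/+ library 5 high cells held 36.9% of the Fn1 UMIs, and in the wild type library 5 held 20.8%, and without them Fn1 had 106 CPM in Fbn1 C1039G/+ and 63.9 CPM in wild type high cells. Fn1 was higher in other interstitial cells too, with a log2 ratio of 1.34. Col8a1 had log2 ratios of 1.38 in female and 0.13 in male cells. The sign of Col8a1 changed when cells were chosen after thinning to 5000 UMIs, to a log2 ratio of -0.22. Spp1 was lower, at 38.5 CPM in Fbn1 C1039G/+ and 87.4 CPM in wild type high cells, in female (log2 -1.06) and in male cells (log2 -0.76), while its log2 ratio in other cells was -0.19. Fgf9, at 38.6 CPM in Fbn1 C1039G/+ and 61.5 CPM in wild type high cells, Igfbp3, at 7.88 CPM in Fbn1 C1039G/+ and 24.4 CPM in wild type high cells, and Wnt9a, at 25.4 CPM in Fbn1 C1039G/+ and 46.6 CPM in wild type high cells, were lower as well. For Igfbp3, 5 cells held 44.9% of the Fbn1 C1039G/+ and 54.0% of the wild type UMIs. Without these cells it had 4.39 CPM in Fbn1 C1039G/+ and 11.3 CPM in wild type high cells.

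Of 20 measured TGF-beta ligands, receptors and targets, 2 were higher and 0 lower in the Fbn1 C1039G/+ high cells. Fst, follistatin, which binds and blocks activins, had 32.4 CPM in Fbn1 C1039G/+ and 13.3 CPM in wild type high cells, and Inhba, the activin A chain, had 47.7 CPM in Fbn1 C1039G/+ and 29.3 CPM in wild type high cells. Both were also higher in other interstitial cells. Over all high cells the ligands stayed within 1.5-fold: Tgfb1 had 56.1 CPM in Fbn1 C1039G/+ and 48.0 CPM in wild type high cells, Tgfb2 had 162 CPM in Fbn1 C1039G/+ and 149.8 CPM in wild type high cells and Tgfb3 had 137 CPM in Fbn1 C1039G/+ and 147 CPM in wild type high cells. Tgfb1 passed 1.5-fold in female cells, at 64.1 CPM in Fbn1 C1039G/+ and 40.1 CPM in wild type high cells, and had a log2 ratio of -0.12 in male cells. Inhba had log2 ratios of 0.71 in female and 0.45 in male cells, within 1.5-fold in male cells. Hbegf, a ligand of the epidermal growth factor receptor, was higher, at 83.8 CPM in Fbn1 C1039G/+ and 43.8 CPM in wild type high cells, with log2 ratios of 1.40 in female and 0.39 in male cells. Ociad2 and Phf11d, at 34.1 CPM in Fbn1 C1039G/+ and 14.6 CPM in wild type high cells and at 34.4 CPM in Fbn1 C1039G/+ and 18.2 CPM in wild type high cells, and the heat shock genes Hspa1a and Hspa1b, near-identical copies whose reads may be split, were among the 10 highest.

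Immediate early genes, transcribed within minutes of a stimulus, gave the largest group lower in the Fbn1 C1039G/+ high cells. Of 16 measured, 11 were lower and 0 higher, with a median log2 ratio of -0.88. Fos had 551 CPM in Fbn1 C1039G/+ and 1123 CPM in wild type high cells, Atf3 had 20.1 CPM in Fbn1 C1039G/+ and 65.4 CPM in wild type high cells and Zfp36 had 48.5 CPM in Fbn1 C1039G/+ and 144 CPM in wild type high cells. In other interstitial cells 12 of 17 were lower, so the group was not particular to the high cells. Fos and Atf3 were lower in both sexes, with log2 ratios of -1.38 and -1.80 in female and -0.81 and -1.56 in male cells.

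Interferon response genes were higher, in 4 of 11 measured and lower in 0, with a median log2 ratio of 0.43. Isg15, a ubiquitin-like modifier, had 169 CPM in Fbn1 C1039G/+ and 76.9 CPM in wild type high cells. Ifi27l2a had 1015 CPM in Fbn1 C1039G/+ and 579 CPM in wild type high cells, and Irf7, the interferon regulatory factor, and Bst2, tetherin, were the other members called. Irf7 and Bst2 passed 1.5-fold in female cells, with log2 ratios of 1.07 and 1.26, and not in male cells, with 0.26 and 0.56. In other interstitial cells 4 of 13 were higher. Isg15 levels also differed between the sexes, at 55.7 CPM in female and 226 CPM in male cells of the Fbn1 C1039G/+ library, and 28.0 and 129.9 CPM in those of the wild type library, and it was higher in the Fbn1 C1039G/+ library in both sexes.

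The 10 lowest genes were chemokines and antigen presentation genes. Ccl5 had 3.24 CPM in Fbn1 C1039G/+ and 82.4 CPM in wild type high cells, with 60.1% of the wild type UMIs in 5 cells. Cxcl10 had 5.598 CPM in Fbn1 C1039G/+ and 101 CPM in wild type high cells, with 78.2% in 5 cells, and Cxcl9 had 3.39 CPM in Fbn1 C1039G/+ and 59.4 CPM in wild type high cells, with 80.3% in 5 cells. Cxcl10 had a log2 ratio of 1.43 in female cells alone, and Cxcl9 one of 0.91 when cells were chosen after thinning, so the sign of both changed. H2-Aa had 47.7 CPM in Fbn1 C1039G/+ and 173 CPM in wild type high cells. The 42 Fbn1 C1039G/+ and 40 wild type high cells that carried at least 3 UMIs of leukocyte or endothelial markers held 81.9% and 87.6% of the H2-Aa UMIs, and without these cells H2-Aa had 9.47 and 23.0 CPM. The same cells held 95.7% and 93.3% of the Cxcl2 UMIs and, at the other end of the ranking, 92.0% and 76.8% of those of Egfl7, an endothelial gene at 27.7 CPM in Fbn1 C1039G/+ and 9.52 CPM in wild type high cells. H2-Ab1, H2-Eb1, Ccl4, Ccl2 and H2-Q7 completed the 10 lowest, and Ctla2a the 10 highest. H2-Q7 shares sequence with related class I genes, and its counts are uncertain.

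Some genes differed between the libraries by other amounts in the high cells than in the other interstitial cells. Tnc had 99.6 CPM in Fbn1 C1039G/+ and 87.6 CPM in wild type high cells, against 44.6 CPM in Fbn1 C1039G/+ and 15.0 CPM in wild type other cells. The difference between the log2 ratios, 0.18 in high cells and 1.51 in other cells, was -1.33 (-1.48 to -1.18, counting error only). Npy had 394 CPM in Fbn1 C1039G/+ and 474 CPM in wild type high cells, against 157 CPM in Fbn1 C1039G/+ and 94.7 CPM in wild type other cells, so that the log2 ratios had opposite signs. Bglap2 had 90.3 CPM in Fbn1 C1039G/+ and 111 CPM in wild type high cells, against 62.5 CPM in Fbn1 C1039G/+ and 152 CPM in wild type other cells. Without the 5 high cells of each library with the most Bglap2, it had 48.4 CPM in Fbn1 C1039G/+ and 75.8 CPM in wild type high cells. Ptn, pleiotrophin, a heparin-binding growth factor, had 287 CPM in Fbn1 C1039G/+ and 223 CPM in wild type high cells, against 585 CPM in Fbn1 C1039G/+ and 743 CPM in wild type other cells. Ptn passed 1.5-fold in neither class, and its log2 ratios were 0.36 in high cells and -0.34 in other cells. Whether these differences between classes exceed the spread between mice was not tested, since each genotype had 1 library.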

How the data were processed

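The authors deposited 1 matrix of UMI counts by gene and barcode for each genotype, not normalised, per the file headers, from droplet libraries made with version 3.1 of the 10x Genomics 3′ kit, per the labels. Reads were mapped to mm10; the submitters' processing notes name Cell Ranger 3.1.0, and the file headers name Cell Ranger 5.0.1. The deposited barcodes had already been selected as cells, so free RNA in empty droplets was not measured here.

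Barcodes with at least 1000 UMIs, at least 500 genes and at most 20% mitochondrial UMIs were kept. High cells were chosen by the rule given at the start of the report. The cells, the gene lists and the comparisons were chosen with earlier results of these data known. Predicted doublets were kept, and removing the barcodes with the highest Scrublet scores, at 0.8% per 1000 barcodes, was an alternative.

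UMIs were summed over the cells of a class and library and divided by the summed total (CPM). Ratios have exact conditional binomial 95% intervals, levels exact Poisson ones and shares exact Clopper-Pearson ones. All cover counting error only. Called genes passed 2-fold between classes in both libraries, or 1.5-fold between libraries, with the interval past 1, among genes with at least 20 CPM in either group and at least 50 UMIs over both. The procedure was checked on simulated counts.

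The genes named are the 15 highest and 10 lowest between classes, ranked by the less extreme library, the 10 highest and 10 lowest between libraries, the markers and rule genes, Fbn1 and the TGF-beta ligands, and up to 4 members of each list. Mitochondrial, ribosomal protein, hemoglobin, immunoglobulin, T cell receptor and unnamed genes, Xist, Tsix and the Y-linked genes used to call sex were left out of these rankings. Other X-linked genes, such as Chrdl1 and Bmx, were kept. A gene of the 10 lowest between classes is not reported here. Other genes named (such as Ackr3, Gja1, Cytl1, Wif1, Scx, Npy, Tnc and Ptn) and the sorting of cells by leading gene were chosen after their values were seen. Cells with at least 2 UMIs of Xist and 0 of Y-linked genes were called female, and the reverse male. Embeddings used 2000 variable genes and 30 components. Positions come from GENCODE M21, whose identifiers matched 32158 of 32285 features, and promoters from RefSeq on GRCm38.p6, with an entry for 5 of the 6 marker genes. Python 3.11.15, NumPy 2.4.6, SciPy 1.17.1, pandas 2.3.3, scanpy 1.11.5, scikit-learn 1.9.0, leidenalg 0.10.2 and matplotlib 3.10.9 were used.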

Additional observations from a re-analysis of the deposited data

Results flagged for a closer look

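The hemoglobin genes differed in direction between the sexes. In high cells with female transcripts the log2 ratio of Fbn1 C1039G/+ over wild type was 4.47 for Hbb-bs and 4.30 for Hba-a1, and in high cells with male transcripts it was -5.24 for Hbb-bs and -5.12 for Hba-a1. Over all high cells, 5 cells held 88.7% of the Hbb-bs UMIs in the Fbn1 C1039G/+ library and 95.6% in the wild type library. The copies of these genes are nearly identical.

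The chemokine genes Cxcl10 and Ccl5 differed in direction between the libraries when high cells were set beside other interstitial cells. The log2 ratio of high over other cells was -2.09 in the Fbn1 C1039G/+ and 1.10 in the wild type library for Cxcl10, and -2.82 and 1.23 for Ccl5. In wild type high cells 5 cells held 78.2% of the Cxcl10 UMIs and 60.1% of the Ccl5 UMIs. Whether any of these differences exceeds the spread between mice was not tested, since each genotype had 1 library.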

How the results depend on the processing

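The share of interstitial cells that are high cells moved with the rule, and it stayed lower in the Fbn1 C1039G/+ than in the wild type library each time. It was 17.6% and 19.5% with at least 5 UMIs of the 3 genes, 7.09% and 8.66% with at least 16, 12.2% and 13.1% with at least 8 per 10000 UMIs, and 6.73% and 7.95% after thinning cells to 5000 UMIs. With no filter on level other than 10 UMIs, 169 genes were higher and 272 lower in high than in other cells, and 283 were higher and 416 lower in Fbn1 C1039G/+ than in wild type high cells. The count higher in Fbn1 C1039G/+ high cells was 81 after thinning, 23 from mean CPM values of cells and 123 in female cells alone, and the count lower was 139 in male cells alone. Of 146 called ratios of high over other cells followed through the alternatives, 142 to 146 kept their call and all kept their sign. Of 51 between the libraries, 29 to 51 kept their call. Those that changed sign were Egfl7, at -0.93 per 10000 UMIs and -0.42 after thinning; after thinning also Cxcl9 (0.91), Ccl2 (0.0417), Col8a1 (-0.22) and Tyrobp (0.44); with predicted doublets removed Lyz2 (0.73); and in female cells alone Cxcl10 (1.43), C3 (0.0834), Hbb-bs (4.47) and Hba-a1 (4.30). The cause was not tested.

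With 1 library per genotype there was no sample to leave out, and differences between the libraries cannot be told apart from differences between mice, pools or preparations. The rule takes deeper cells more often, and 3′ counts do not allow levels of different genes to be compared. No paired analysis was possible because each genotype has 1 library.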

Other observations

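Genes of nerve growth factors and axon guidance were found in both directions among the genes past 2-fold between high and other interstitial cells; they were chosen after their values were seen. Nrtn, neurturin, a ligand of the GDNF family, had 35.4 CPM in high cells and 7.04 CPM in other cells of the Fbn1 C1039G/+ library, and 42.6 CPM in high cells and 7.94 CPM in other cells of the wild type library. Gfra1, the GDNF co-receptor, was lower, at 23.4 CPM in high against 50.4 CPM in other Fbn1 C1039G/+ cells, and 14.3 CPM in high against 39.8 CPM in other wild type cells. Sema3c, a secreted guidance protein, had 58.3 CPM in Fbn1 C1039G/+ high cells (19.3 CPM in the other cells) and 63.6 CPM in wild type high cells (20.3 CPM in the other cells), while Nrp1, a receptor of class III semaphorins, was lower, at 68.2 CPM in high against 147 CPM in other Fbn1 C1039G/+ cells, and 57.4 CPM in high against 143 CPM in other wild type cells. Slit2, another secreted guidance protein, was lower as well, at 10.8 CPM in Fbn1 C1039G/+ high cells (38.6 CPM in the other cells) and 8.35 CPM in wild type high cells (42.03 CPM in the other cells), and so was Ntrk2, a neurotrophin receptor, at 6.85 CPM in high against 26.4 CPM in other Fbn1 C1039G/+ cells, and 7.87 CPM in high against 31.97 CPM in other wild type cells. Uts2r, the urotensin II receptor, was higher, at 77.2 CPM in Fbn1 C1039G/+ high cells (22.6 CPM in the other cells) and 80.6 CPM in wild type high cells (23.4 CPM in the other cells). These levels describe 1 library per genotype, and nerve tissue was not examined.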
